A study of Mus musculus with 12 samples.

Results

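The dentate gyrus marker genes are 10 genes, Prox1, Pdzd2, Lgr6, Zic1, Smoc2, Dsp, C1ql2, Trpc6, Tdo2 and Lct, and they were found by symbol among the 32546 genes of a table of UMI counts. All 10 had a row. They were picked with earlier results of the same libraries in view, so their difference between the dentate gyrus (DG) and the other hippocampal regions is given as a description, and counts of calls in these contrasts are no independent evidence of it. Photo-isolation chemistry (PIC) makes cDNA in tissue sections with a reverse transcription primer that carries a light-sensitive cage, and only cDNA from the part of the section that is illuminated goes on into sequencing. CA1, CA3 and DG of male ICR mice aged 8 weeks were illuminated in 4 histological conditions. Fresh-frozen sections were opened for the primers either by 5 min in 0.1 N HCl or by 1 h in TE heated to 70 °C. The TE step was also used on frozen and on paraffin sections of tissue that had been fixed in 4% PFA. By the paper's protocol, sections of every kind, fresh-frozen ones included, were first post-fixed on the slide in 4% PFA for 10 min. Its HCl arm further held a detergent step and a step in heated PBS that the TE arm lacks. Each of the 12 combinations of region and condition had 4 replicates with their own barcodes, pooled in 1 library. Library and region, or library and condition, can therefore not be told apart in any comparison. Which mouse gave which replicate is not stated, so p-values measure the spread between these replicates. No transgene or treatment other than the histological steps was used, and the region called CA3 here is named CA2 in the description of the series.

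The principal neurons of the DG are granule cells, small densely packed excitatory neurons that receive input from the entorhinal cortex and send mossy fibres to CA3. They are among the few neurons that are still born in the adult rodent brain. The 10 genes have unlike roles in such cells. Prox1 and Zic1 encode transcription factors, C1ql2 and Smoc2 secreted proteins, Lgr6 and Trpc6 a receptor and a channel of the cell membrane, Dsp and Pdzd2 proteins of cell junctions and scaffolds, and Tdo2 and Lct enzymes. Prox1, a homeobox factor, is the classical marker of granule cells and is needed for their identity.

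The sequences before the transcription start were examined because the genes were high in the same region. Windows of 250 bases before a RefSeq start (GRCm38.p6) were held for 9 of the 10 genes, with 10 windows in all. They are given 5′ to 3′ on the strand of the gene. Prox1 is shown for its E-box, a motif read by proneural bHLH factors such as NEUROD1, which is in capitals. C1ql2 and Lct are shown as windows with many and with hardly any CpG dinucleotides, which are in capitals.
Prox1, chr1:190170828-190171077, minus strand: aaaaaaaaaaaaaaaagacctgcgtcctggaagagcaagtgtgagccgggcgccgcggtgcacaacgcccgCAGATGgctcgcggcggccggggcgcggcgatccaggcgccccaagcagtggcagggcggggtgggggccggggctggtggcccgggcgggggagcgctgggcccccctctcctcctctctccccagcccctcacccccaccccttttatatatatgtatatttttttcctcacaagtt
C1ql2, chr1:120340332-120340581, plus strand: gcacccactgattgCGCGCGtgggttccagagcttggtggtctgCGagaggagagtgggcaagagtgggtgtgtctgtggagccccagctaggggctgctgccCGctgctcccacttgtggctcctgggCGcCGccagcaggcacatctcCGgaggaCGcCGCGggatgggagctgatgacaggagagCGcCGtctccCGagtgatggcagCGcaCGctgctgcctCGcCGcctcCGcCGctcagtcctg
Lct, chr1:128328319-128328568, minus strand: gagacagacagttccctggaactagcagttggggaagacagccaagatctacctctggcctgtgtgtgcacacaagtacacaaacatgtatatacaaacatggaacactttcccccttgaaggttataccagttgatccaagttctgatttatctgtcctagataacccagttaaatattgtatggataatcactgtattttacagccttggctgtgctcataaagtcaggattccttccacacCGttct
The motif CAGATG was found once in the Prox1 window shown, 179 bases before the start. A second RefSeq start of Prox1 had a window (chr1:190169516-190169765) without it, with 11 CpG and 56.0% GC. Neither CAGATG nor CATATG, searched on both strands, was found in the windows of the other 8 genes, and 17.33% of all 32851 windows held at least 1 of them. The Prox1 and C1ql2 windows shown had 20 CpG dinucleotides each, with a GC content of 64.8% and 68.8%. The Lct window had 1 CpG and 42.8% GC, and that of Tdo2 had 3 CpG and 46.4% GC. The windows of Pdzd2, Lgr6, Zic1, Dsp and Trpc6 held 16, 16, 27, 22 and 12. The median window of all genes had 6 CpG and 52.4% GC, so the windows of the genes stood on both sides of it.

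Replicates held 35932 to 1111804 UMIs, with medians per condition of 731106 in fresh-frozen HCl, 629964 in fresh-frozen TE, 122520 in fixed frozen and 67528 in paraffin sections (n = 12 each). Levels are given as CPM, the share of a gene in all UMIs of its replicate scaled so that every replicate has the same total, and 3 UMIs over a group were taken as the limit that a count of 0 allows. Intervals and limits cover counting error only. Marker lists followed the labels: the summed CPM of 6 CA1 pyramidal genes averaged 490.5 to 1275 in CA1 over the conditions and 202.9 to 286 in DG, and that of 6 CA3 pyramidal genes 448 to 620.3 in CA3 and 168 to 316 in DG. The mean was also highest in DG in each condition for astrocyte genes (6 genes, 1089 to 4490.0 CPM against 576 to 2592 in CA1 and 557 to 2495 in CA3), mossy cell genes (5 genes, 87.9 to 142 against 9.79 to 35.2 and 43.8 to 72.4) and immature granule cell genes (5 genes, 225 to 365 against 89.3 to 189 and 122 to 188), Calb2 being in the last 2 lists. It was likewise highest in DG for 7 leptomeningeal genes (70.2 to 233 CPM in DG, 20.5 to 104 in CA1, 56.8 to 194 in CA3), 6 Cajal-Retzius cell genes (33.6 to 116, 24.8 to 59.0 and 13.3 to 64.5) and 6 endothelial and mural genes (187 to 508, 133 to 482 and 109 to 476). The 7 interneuron genes had no such order (907 to 1117, 897 to 1298 and 723 to 1109). The 6 choroid plexus genes varied between replicates of the same library, in paraffin DG from 40.4 to 9016 CPM. Fewer cells of a type and less RNA per cell cannot be told apart in such bulk samples.

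**Figure D1:**
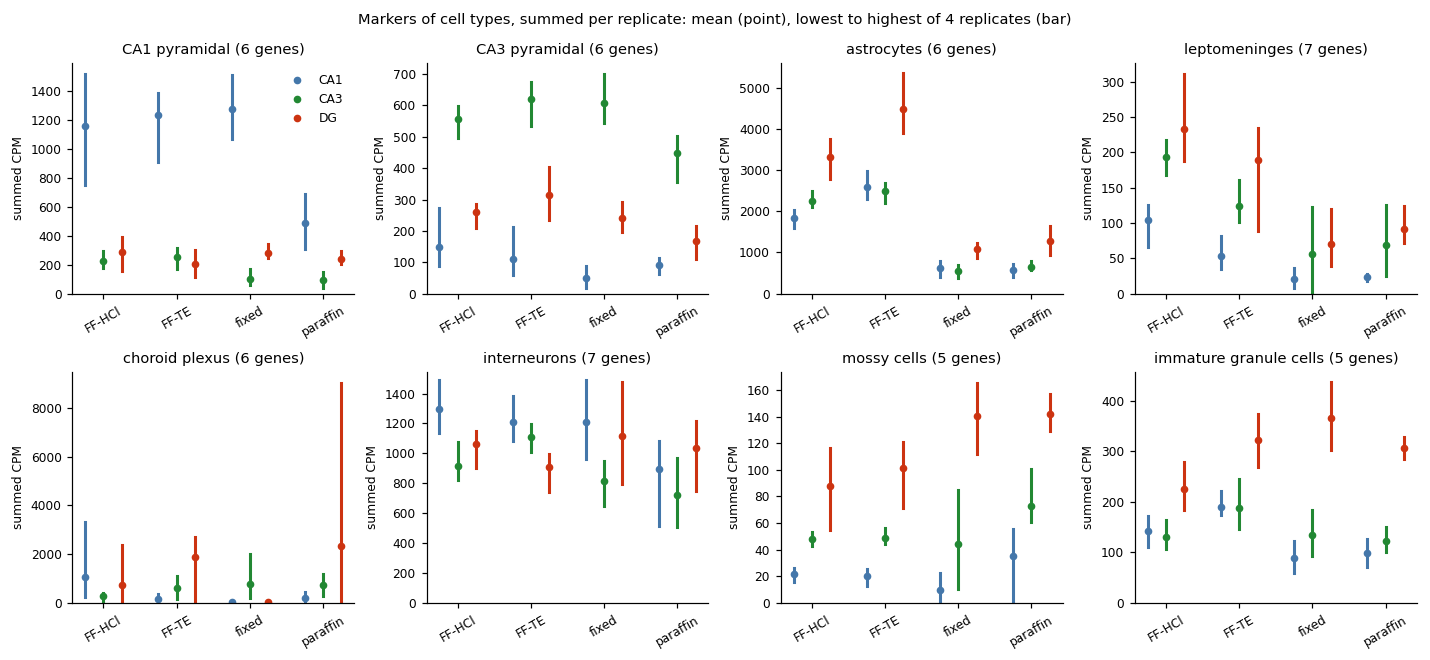
Summed CPM of 8 lists of cell type markers (vertical axes) by condition (horizontal axes) and region. Points are means and bars run from the lowest to the highest of 4 replicates. CA1 and CA3 pyramidal genes were highest in their own regions. Of the lists drawn, astrocyte, leptomeningeal, mossy cell and immature granule cell genes had their highest mean in DG in each condition.

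Summed over the 10 genes, DG held 2135 ± 316 CPM in fresh-frozen HCl, 2206 ± 204 in fresh-frozen TE, 1747 ± 108 in fixed frozen and 1272 ± 134 in paraffin sections (SD, n = 4). CA1 held 260.1 ± 48.9, 281 ± 53.5, 173 ± 42.2 and 249 ± 76.6 CPM, and CA3 515 ± 166, 484 ± 33.2, 293 ± 76.0 and 337 ± 32.6 CPM. The sum leans on Prox1, which gave 38.4% to 48.4% of its UMIs in DG. The median of the 10 ratios of pooled CPM, with genes that had no UMI in the other region set at their lower bound, was 10.9, 13.3, at least 15.2 and at least 3.70 for DG over CA1 and 5.23, 5.46, 7.80 and at least 4.52 for DG over CA3, in the same order of conditions. In fixed frozen and in paraffin sections 3 of the ratios to CA1 were bounds, and in paraffin sections 1 to CA3, and a bound lies lower the fewer UMIs a library has.

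Counting genes by the edgeR test of each condition, with adjusted p under 0.05, 9 of the 10 were called higher in DG than in CA1 in fresh-frozen HCl, where 8.17% of all genes tested were. The count was 8 in fresh-frozen TE (5.05% of all genes), 8 in fixed frozen (4.73%) and 5 in paraffin sections (2.26%). Against CA3 it was 8 in fresh-frozen HCl (4.53%), 8 in fresh-frozen TE (3.57%), 8 in fixed frozen (4.97%) and 4 in paraffin sections (1.31%). Smoc2 was called lower in DG than in CA3 in fresh-frozen TE sections, where 626 of 14386 genes were. No other gene of the 10 was called lower in DG in a region contrast. These contrasts are those the genes were picked on, or share their DG replicates, and the counts support nothing. Trpc6 had too few UMIs to be fitted in paraffin sections and was called in no condition. In paraffin DG against CA1, 203 of all genes were called higher and 79 lower, and with size factors of DESeq2 157 and 106. The paraffin counts of the 10 genes rested in part on replicate 3 of DG, without which they were 3 against CA1 and 2 against CA3.

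**Figure D2:**
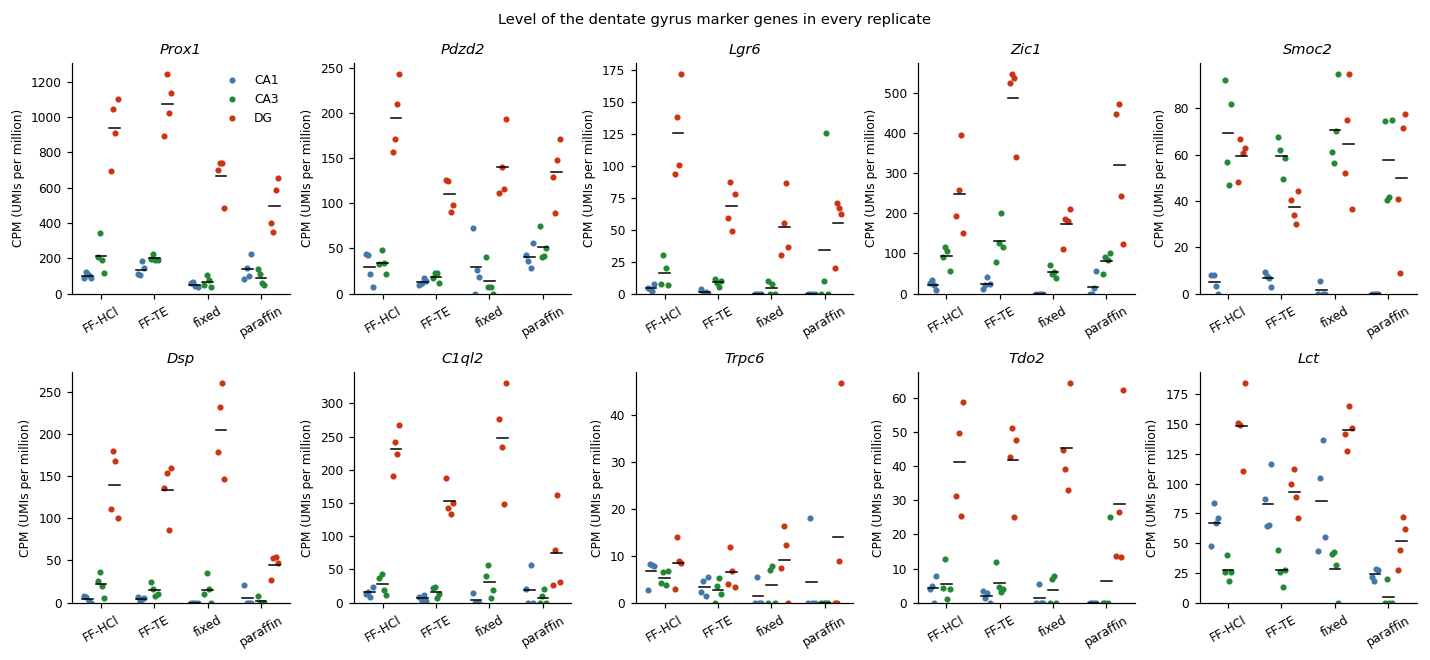
CPM of each of the 10 genes (vertical axes) in every replicate (points), by condition (horizontal axes, FF for fresh-frozen) and region, with means as bars. Prox1, C1ql2 and Dsp were far higher in DG in the frozen sections, Smoc2 was as high in CA3 as in DG, and Lct in CA1 came near its level in DG.

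Among the transcription factors, Prox1 (ENSMUSG00000010175, chr1:190118035-190170714, GRCm38, minus strand) was higher in every DG replicate than in any CA1 or CA3 replicate of the same condition. In fresh-frozen HCl sections it stood at 693, 1047, 908 and 1101 CPM in DG, at 90.3, 125, 107 and 86.4 in CA1 and at 206, 346, 190.1 and 118 in CA3. In fresh-frozen TE sections the values were 894, 1245, 1023 and 1138 in DG, 112, 104, 182 and 146 in CA1, and 194, 223, 189.8 and 189.5 in CA3. DG stood 8.91 times (95% exact counting interval 7.80 to 10.2) above CA1 in the first and 7.98 times (7.13 to 8.96) in the second, on 1897 and 2116 UMIs in DG. Fixed frozen DG held 701, 742, 738 and 486 CPM, against 57.9, 66.3, 42.6 and 36.9 in CA1 and 50.9, 106, 78.3 and 37.9 in CA3. Paraffin DG held 400.0, 347, 587 and 654 CPM, against 85.4, 144, 98.9 and 223 in CA1 and 141, 111, 62.8 and 50.1 in CA3. The ratio to CA1 was thus widest in fixed frozen (12.8, 8.45 to 20.4) and narrowest in paraffin sections (3.84, 2.58 to 5.93), and the ratio to CA3 went from 4.23 (3.89 to 4.61) in fresh-frozen HCl to 9.18 (6.43 to 13.6) in fixed frozen sections. Prox1 is also known from some interneurons, and the mean of the interneuron list was lower in DG than in CA1 in the 3 frozen conditions (1060 against 1298, 907 against 1213 and 1117 against 1212 CPM), and higher in paraffin sections (1038 against 897 CPM). Against CA3 it was higher in DG in fresh-frozen HCl (1060 against 917 CPM), fixed frozen (1117 against 818) and paraffin sections (1038 against 723) and lower in fresh-frozen TE (907 against 1109), and its part in the level of Prox1 was not tested. Reads were assigned without regard to strand, and Prox1os, an antisense gene that overlaps its exons, was counted separately with 146 UMIs in all replicates against 6964 for Prox1.

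Zic1 (ENSMUSG00000032368, chr9:91358058-91365810, minus strand), a zinc finger factor of neural development, separated the 3 regions. In fresh-frozen TE sections it stood at 524, 547, 537 and 339.6 CPM in DG, at 79.6, 126, 202 and 115 in CA3 and at 10.3, 21.1, 41.9 and 24.3 in CA1. In fresh-frozen HCl sections DG held 193, 258, 396 and 151 CPM, CA3 90.1, 117, 107 and 57.4, and CA1 26.0, 32.8, 20.7 and 7.86. No replicate of any region overlapped another region in either condition. In fixed frozen sections Zic1 had 139 UMIs in DG (112, 186, 182 and 211 CPM), 23 in CA3 (71.3, 49.4, 54.8 and 37.9 CPM) and none in CA1, so that DG was at least 24.6-fold higher than CA1. Paraffin DG held 447, 471, 242 and 124 CPM, CA3 49.6, 90.7, 83.7 and 100.2, and CA1 3 UMIs in all. The ratio of DG to CA3 lay between 3.04 (2.65 to 3.50) in fresh-frozen HCl and 4.43 (2.86 to 7.16) in paraffin sections. Zic1 is also known from the meninges. The leptomeningeal list had the same order of regions, with means of 233, 194 and 104 CPM in DG, CA3 and CA1 in fresh-frozen HCl and 189.9, 124 and 53.1 in fresh-frozen TE sections, with none of its 7 genes at 0 in these conditions, and its part in the level of Zic1 was not tested. Zic4 lies on the opposite strand with overlapping exons and had 449 UMIs against 2834 for Zic1. The counting command given in the paper sets no option for reads that overlap several genes, so reads in the shared stretch may be missing from both.

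Of the secreted proteins, C1ql2 (ENSMUSG00000036907, chr1:120340582-120343174, plus strand) belongs to the C1q family and is released at mossy fibre synapses, where it binds kainate receptors. Its DG values were 190.2, 242, 223 and 268 CPM in fresh-frozen HCl, 187, 143, 134 and 149 in fresh-frozen TE and 276, 234, 148 and 330.3 in fixed frozen sections. CA1 stayed at or below 23.6 CPM and CA3 at or below 56.5 CPM in these conditions, far from any DG replicate. DG stood 17.8 times (12.3 to 26.7) above CA1 and 7.96 times (6.39 to 9.996) above CA3 in fresh-frozen HCl, and 20.2 times (12.8 to 33.5) and 8.96 times (6.70 to 12.2) in fresh-frozen TE sections. In paraffin sections the DG values spread over 27.1, 80.02, 161 and 31.1 CPM and overlapped CA1, which held 21.3, 0, 56.5 and 0 CPM. That CA1 mean came from 5 UMIs.

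Smoc2 (ENSMUSG00000023886, chr17:14279506-14404790, plus strand), a calcium-binding protein of the extracellular matrix, was low in CA1 alone. DG held 48.2, 66.7, 60.9 and 62.8 CPM in fresh-frozen HCl sections, CA1 8.21, 8.20, 3.45 and 0, and CA3 92.2, 56.8, 46.9 and 82.0. In fresh-frozen TE sections DG held 40.7, 34.1, 30.2 and 44.1 CPM, CA1 9.19, 7.53, 6.75 and 2.70, and CA3 67.8, 62.1, 49.3 and 58.6. Here every CA3 replicate was above every DG replicate, and the ratio of DG to CA3 was 0.611 (0.458 to 0.806). Smoc2 was called lower in DG here (log2 fold change -0.75), a call lost in 6 of 8 fits that left out a replicate. In fixed frozen sections DG and CA3 overlapped at 52.2, 74.9, 94.9 and 36.7 against 61.1, 56.5, 70.5 and 94.7 CPM, and in paraffin sections at 40.7, 8.89, 71.7 and 77.8 against 74.5, 40.3, 41.8 and 75.2 CPM. CA1 held 1 UMI in fixed frozen and none in paraffin sections. Against its label, Smoc2 therefore did not mark DG among the 3 regions in these libraries.

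Lgr6 (ENSMUSG00000042793, chr1:134983301-135105276, minus strand), a receptor for R-spondins, had hardly any UMIs in CA1. It stood at 93.7, 138, 100.3 and 172 CPM in DG of fresh-frozen HCl sections, at 2.30 to 7.86 CPM in CA1 and at 6.84 to 30.0 in CA3. In fresh-frozen TE sections DG held 59.0, 86.9, 48.6 and 78.1 CPM, CA1 4 UMIs in all and CA3 5.36 to 11.8 CPM. The ratio of DG to CA1 was 34.9 (17.4 to 81.8) and 44.3 (16.9 to 165) in these conditions, and the ratio to CA3 7.28 (5.42 to 9.91) and 8.03 (5.28 to 12.6). No CA1 replicate of fixed frozen or paraffin sections had a UMI, against 46 and 30 UMIs in DG, at least 8.15-fold and 3.82-fold higher. In paraffin CA3, 6 of 7 UMIs lay in replicate 3, which at 126 CPM was above all DG replicates (20.3, 71.1, 67.2 and 62.2). Trpc6 (ENSMUSG00000031997, chr9:8544142-8680741, plus strand), a cation channel gated by diacylglycerol, had 102 UMIs in all 48 replicates and at most 19 in any group. DG values were 2.84, 13.96, 8.88 and 8.37 CPM in fresh-frozen HCl and 4.07, 11.9, 6.71 and 3.40 in fresh-frozen TE sections, and they overlapped CA1 and CA3 in each condition. A higher level of Trpc6 in DG was not detectable at this depth, and its largest ratio to CA1, 4.78 in fixed frozen sections, had an interval of 0.663 to 210. Gm32014, on the opposite strand within the same locus, had 51 UMIs.

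Dsp (ENSMUSG00000054889, chr13:38151294-38198577, plus strand) encodes desmoplakin, which ties desmosomes to intermediate filaments. DG held 111, 179.9, 168 and 100.5 CPM in fresh-frozen HCl, 136, 153, 85.6 and 159.6 in fresh-frozen TE and 179, 231, 259.9 and 147 in fixed frozen sections. CA1 had 12 UMIs in each fresh-frozen condition and none in fixed frozen sections, which puts DG 29.9 times (16.9 to 58.6), 28.5 times (16.1 to 56.0) and at least 30.8-fold higher. CA3 lay between, at 5.47 to 36.4 CPM in fresh-frozen HCl and 7.50 to 25.1 in fresh-frozen TE sections, and DG over CA3 was 6.71 (5.22 to 8.72) and 8.91 (6.51 to 12.4). Paraffin DG kept 27.1, 53.4, 53.8 and 46.7 CPM, with 1 UMI each in CA1 and CA3. Pdzd2 (ENSMUSG00000022197, chr15:12359711-12739924, minus strand), which has several PDZ domains, was higher in each DG replicate than in all CA1 and CA3 replicates of its condition. Its DG values were 156, 171, 209 and 243 CPM in fresh-frozen HCl, 126, 124, 90.6 and 98.5 in fresh-frozen TE, 112, 140.0, 116 and 193 in fixed frozen and 129, 88.9, 148 and 171 in paraffin sections. The ratio to CA1 ran from 3.49 (1.68 to 8.38) in paraffin to 8.62 (5.98 to 12.8) in fresh-frozen TE sections. The ratio to CA3 ran from 2.42 (1.41 to 4.37) in paraffin to 9.46 (4.21 to 26.4) in fixed frozen sections.

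Of the enzymes, Tdo2 (ENSMUSG00000028011, chr3:81957090-81976202, minus strand) opens the ring of tryptophan at the first step of the kynurenine pathway. DG held 31.2, 49.6, 25.4 and 58.6 CPM in fresh-frozen HCl, 42.7, 51.1, 25.2 and 47.5 in fresh-frozen TE and 44.7, 39.1, 33.0 and 64.2 in fixed frozen sections. No replicate of CA1 exceeded 7.86 CPM there, and DG was 12.7 times (5.88 to 32.7) and 17.9 times (7.88 to 50.3) above CA1 in the fresh-frozen conditions. CA3 had 20 and 18 UMIs in these, and DG over CA3 was 6.48 (3.92 to 11.2) and 7.30 (4.34 to 12.9). In paraffin sections 12 UMIs in DG stood against 0 in CA1 and 1 in CA3.

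Lct (ENSMUSG00000026354, chr1:128284756-128328318, minus strand) encodes lactase, best known from the small intestine. Its level in CA1 came close to that in DG in some conditions. In fresh-frozen HCl sections DG held 150.4, 149, 110.4 and 184 CPM, CA1 47.9, 83.6, 66.7 and 70.7, and CA3 25.7, 39.6, 18.5 and 26.0. In fresh-frozen TE sections DG held 99.6, 112, 88.9 and 71.3 CPM and CA1 87.3, 64.8, 64.8 and 116, so that both overlapped, at a ratio of 1.21 (0.988 to 1.48). Fixed frozen DG (142, 127, 165 and 147 CPM) overlapped CA1 (43.5, 105, 136 and 55.4 CPM), at a ratio of 1.48 (1.03 to 2.17). CA3 stayed at 12.9 to 44.2 CPM in fresh-frozen TE and at 0 to 42.4 in fixed frozen sections, below every DG replicate. DG over CA3 was 4.96 (3.92 to 6.33), 3.65 (2.81 to 4.78) and 4.32 (2.47 to 8.15) in the 3 frozen conditions. In paraffin sections DG held 27.1, 44.5, 71.7 and 62.2 CPM, CA1 21.3, 18.0, 28.2 and 27.8, and CA3 2 UMIs in 1 replicate, and CA1 overlapped both other regions. In fresh-frozen HCl sections every DG replicate was above every CA1 replicate, at a ratio of 2.12 (1.73 to 2.59), so that overlap of DG and CA1 was seen in the other 3 conditions.

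**Figure D3:**
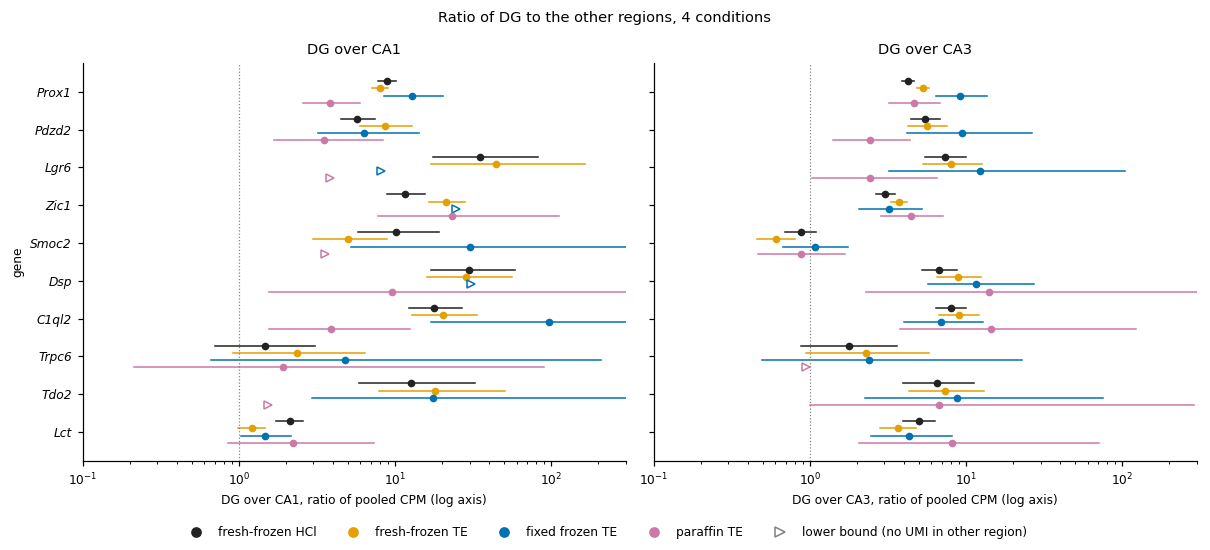
Ratio of pooled CPM of DG to CA1 (left) and to CA3 (right) on log axes for each gene (vertical axis) and condition. Bars are 95% exact counting intervals, cut at the axis limit, and open triangles are lower bounds where the other region had no UMI. All ratios of Smoc2 to CA3 lie near or below 1, and those of Lct to CA1 lie between 1.21 and 2.22.

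The mean CPM of CA3 was above that of CA1 for 8 of the 10 genes in each of the frozen conditions and for 5 of 10 in paraffin sections. The share over all genes was not determined, so these counts are not shown to be a trait of the 10. They include small differences, as for Pdzd2 in fresh-frozen HCl sections (ratio 1.05, 0.78 to 1.41). Others rest on few UMIs, as for Tdo2 in fixed frozen (2 against 1) and paraffin sections (1 against 0). Smoc2 had the higher mean in CA3 in each condition, and its mean in CA3 was also above that in DG (69.5 against 59.7, 59.4 against 37.3, 70.7 against 64.7 and 57.9 against 49.8 CPM). For Zic1 the ratio of CA3 to CA1 was 3.81 (2.87 to 5.13) in fresh-frozen HCl and 5.72 (4.39 to 7.58) in fresh-frozen TE sections, and for Dsp 4.46 (2.41 to 8.998) and 3.20 (1.67 to 6.63). For Lct it was 0.426 (0.326 to 0.554) and 0.331 (0.254 to 0.428). No test was made of these ratios, as CA1 and CA3 were both in the contrasts the genes were read from.

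The levels in DG between histological conditions were tested with edgeR on the 4 DG replicates of each condition. The contrasts behind the choice of the genes were between regions, but they held the same DG replicates, so these tests are not free of that choice. Zic1 passed the test in all 3 steps between conditions. From fresh-frozen HCl to fresh-frozen TE sections, 3 of the 10 genes passed the test, where 15.4% of all genes did. Zic1 rose from 249.3 ± 107 to 487 ± 98.7 CPM (SD, n = 4), a log2 fold change of 1.06 ± 0.20 (SE, edgeR adjusted p = 0.000264). Pdzd2 fell from 195 ± 39.2 to 109.9 ± 18.0 CPM (log2 fold change -0.66 ± 0.19, edgeR adjusted p = 0.012) and Lgr6 from 126 ± 36.2 to 68.2 ± 17.5 CPM (-0.72 ± 0.23, edgeR adjusted p = 0.0265). Replicates of both libraries that carried the same number deviated together, and with the replicate number as a block in the fit 6 genes passed. The additional ones were Prox1 (0.35 on the log2 scale, edgeR adjusted p = 0.00602), C1ql2 (-0.46, 0.00948) and Lct (-0.45, 0.0372). Calls over all genes rose too. With the block 1760 of 14102 genes were called higher and 1444 lower, against 1178 and 989 without it. Without replicate 3 of fresh-frozen TE DG, 1 gene passed. The astrocyte list in DG went from 3324 ± 483 to 4490.0 ± 608 CPM and that of immature granule cells from 225 ± 41.4 to 322 ± 49.6 CPM between these conditions, while the leptomeningeal list went from 233 ± 54.1 to 189.9 ± 68.8, and their part was not tested.

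From fresh-frozen TE to fixed frozen sections, 6 of the 10 genes passed, where 37.6% of all genes did and the median log2 fold change of all genes was -0.23. Zic1 fell from 487 ± 98.7 to 172 ± 42.5 CPM (-1.49 ± 0.19, edgeR adjusted p = 2.45e-12), and Prox1 from 1075 ± 151 to 667 ± 122 CPM (-0.66 ± 0.15, edgeR adjusted p = 0.000181). The other 4 genes that passed rose. Smoc2 went from 37.3 ± 6.30 to 64.7 ± 25.5 CPM (0.95 ± 0.31, edgeR adjusted p = 0.0098), Dsp from 134 ± 33.6 to 204 ± 50.9 CPM (0.70 ± 0.20, 0.00302), C1ql2 from 154 ± 23.2 to 247 ± 76.6 CPM (0.62 ± 0.20, 0.00718) and Lct from 93.1 ± 17.4 to 145 ± 15.7 CPM (0.61 ± 0.22, 0.0223). The count was 2 without replicate 3 of fresh-frozen TE DG and 3 without replicate 3 of fixed frozen DG. The astrocyte list in DG went from 4490.0 ± 608 to 1089 ± 160 CPM and the leptomeningeal list from 189.9 ± 68.8 to 70.2 ± 35.1 between these conditions, and their part in the CPM of the 10 genes was not tested.

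From fixed frozen to paraffin sections, 5 of the 10 genes passed, where 20.3% of all genes did. Dsp fell from 204 ± 50.9 to 45.2 ± 12.5 CPM (-2.31 ± 0.31, edgeR adjusted p = 7.82e-12). Lct fell from 145 ± 15.7 to 51.4 ± 19.7 CPM (-1.55 ± 0.32, edgeR adjusted p = 2.86e-05) and C1ql2 from 247 ± 76.6 to 74.9 ± 62.5 CPM (-1.51 ± 0.26, 4.75e-07). Prox1 fell from 667 ± 122 to 497 ± 147 CPM (-0.58 ± 0.19, edgeR adjusted p = 0.0194), a call that DESeq2 did not make, while Zic1 rose from 172 ± 42.5 to 321 ± 167 CPM (0.83 ± 0.22, edgeR adjusted p = 0.00193). Without replicate 1 or replicate 2 of paraffin DG, 3 genes passed. For Pdzd2, Lgr6 and Tdo2 the log2 fold changes were -0.14 ± 0.27, -0.16 ± 0.38 and -0.99 ± 0.52. The astrocyte list in DG stood at 1089 ± 160 and 1283 ± 296 CPM in these conditions. Neighbouring steps share a DG library, fresh-frozen TE in the first pair and fixed frozen in the second, so opposite signs of a gene in neighbouring steps, as for Zic1, are not independent.

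The 14 other granule cell genes described further on were tested between conditions in the same fits. From fresh-frozen HCl to TE 4 of them rose and none fell, where 15.4% of all genes passed. With the replicate block, under which more of all genes passed, Rfx3 (0.33), Plk5 (-0.90) and Npnt (-0.44) passed as well. From fresh-frozen TE to fixed frozen sections 5 rose and 2 fell (37.6% of all genes passed). From fixed frozen to paraffin sections none rose and 3 fell, a share near the 20.3% of all genes. The median log2 fold change of the 14 was 0.41, 0.43 and -0.60 in the 3 steps. That of the 10 genes was -0.35, 0.46 and -0.58, and that of all genes -0.01, -0.23 and 0.0056.

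**Figure D4:**
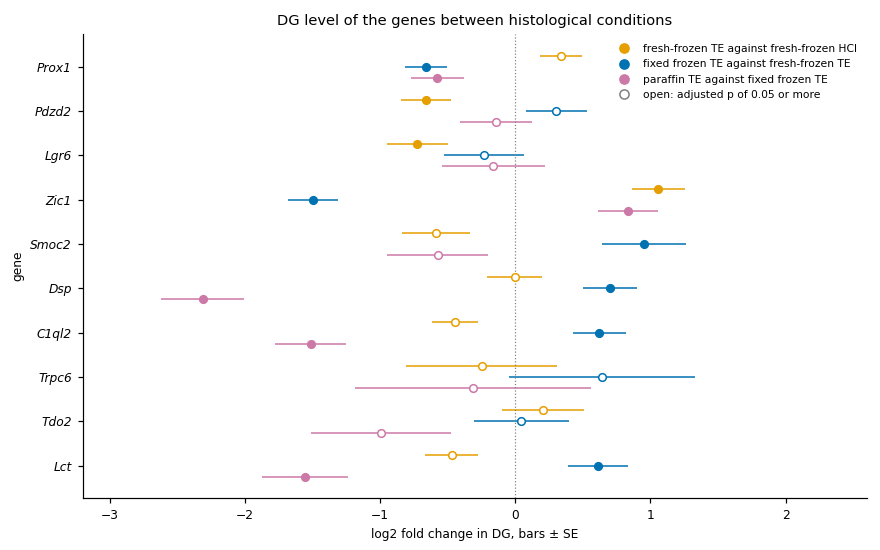
Log2 fold change of each gene in DG (horizontal axis) for 3 steps between conditions, with bars of ± SE. Filled points had an edgeR adjusted p under 0.05. Zic1 passed in all 3 steps, with 1.06, -1.49 and 0.83, and Dsp, C1ql2 and Lct fell by 1.51 to 2.31 from fixed frozen to paraffin sections.

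Whether the difference between regions itself depended on the condition was tested by an interaction term against fresh-frozen TE sections in 1 edgeR fit over all 32 replicates of both regions. The region folds compared are those the genes were picked on, or share their DG replicates, so these tests are not free of that choice. For DG over CA1, 0 of the 10 genes passed for fresh-frozen HCl (1.13% of all genes), fixed frozen (0.192%) or paraffin sections (0.593%). An unadjusted p under 0.05 was reached by 2, 4 and 2 of them, and by 1938, 1150 and 1624 of all 17214 genes. For DG over CA3, 0 of the 10 passed in the same comparisons (0.127%, 0.266% and 0.445% of all genes). At an unadjusted p under 0.05 there were 0, 2 and 1 of them, and 793, 1592 and 1582 of all 17318 genes. DESeq2 called 0 of the 10 in all of these comparisons as well, with 1, 0 and 3 for CA1 and 0, 0 and 2 for CA3 at an unadjusted p under 0.05. Of all genes, 1547, 756 and 1039 for CA1 and 513, 989 and 1046 for CA3 had such a p in DESeq2. The median interaction of all genes in fixed frozen and paraffin sections was 0.21 and 0.30 for CA1 and 0.29 and 0.29 for CA3 with edgeR, and -0.16, -0.28, -0.21 and -0.19 with DESeq2, so the sign of a small interaction depends on the tool. For the 10 genes the edgeR median was -0.17, 1.58 and 0.12 for CA1 in fresh-frozen HCl, fixed frozen and paraffin sections. For CA3 it was -0.17, 0.48 and 0.52. In fixed frozen sections 3 of the 10 had no UMI in CA1. With so few of all genes called, 0 of 10 does not show that the folds were alike. The intervals were wide, and the examples given here are ones that leave out 0. For Prox1 the DG over CA1 fold in fixed frozen sections differed from that in fresh-frozen TE by 0.78 on the log2 scale (95% interval 0.04 to 1.52, edgeR adjusted p = 0.713), and in paraffin sections by -0.93 (-1.70 to -0.17, edgeR adjusted p = 0.383). For Lct the fresh-frozen HCl fold over CA1 differed from the TE fold by 0.91 (0.29 to 1.53, edgeR adjusted p = 0.152), and for Zic1 by -0.94 (-1.69 to -0.19, edgeR adjusted p = 0.27).

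A list of 14 other genes known from mature granule cells was fitted between regions together with the 10. It too was put together with earlier results of these libraries known, so its counts and adjusted p-values are not independent evidence that granule cell genes were higher in DG. Of these, 12 passed as higher in DG than in CA1 in fresh-frozen HCl, 12 in fresh-frozen TE, 12 in fixed frozen and 4 in paraffin sections, and none passed as lower. Against CA3 the counts were 13, 13, 11 and 3, again with none lower. The background shares are the ones given with the 10 genes. The median log2 fold change over the fitted genes of the list was 2.05, 2.12, 2.86 and 1.48 against CA1 and 1.75, 1.85, 2.58 and 1.47 against CA3, where that of all genes lay between -0.04 and 0.17. In paraffin sections the CA1 count was 1 without replicate 2 of CA1 and 2 without replicate 3 of CA1.

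With the same limit, Calb1, the calcium buffer calbindin, passed in all 8 comparisons. In fresh-frozen TE sections it stood at 288 ± 41.8 CPM in DG, 80.7 ± 13.8 in CA1 and 52.7 ± 16.9 in CA3 (SD, n = 4), and the log2 fold changes were 1.83 ± 0.18 (SE, edgeR adjusted p = 9.42e-10) and 2.46 ± 0.21 (edgeR adjusted p = 1.29e-09). Rfx3, a transcription factor of the RFX family, also passed in all 8, with 2.16 ± 0.18 against CA1 in fresh-frozen TE (edgeR adjusted p = 1.04e-11) and 1.30 ± 0.33 in paraffin sections (edgeR adjusted p = 0.00716). Plk5, of the polo-like kinase family, had the widest difference in fresh-frozen HCl sections, at 4.79 ± 0.53 against CA1 (edgeR adjusted p = 4.63e-09), from 108 UMIs in DG and 4 in CA1. Lrrtm4, a synaptic adhesion protein, differed by 1.98 ± 0.28 (edgeR adjusted p = 7.58e-07) and Stxbp6, which binds SNARE proteins, by 2.83 ± 0.27 (9.43e-11) against CA1 in the same sections. Pdyn, the precursor of dynorphin, differed by 3.65 ± 0.50 in fresh-frozen TE sections (edgeR adjusted p = 1.14e-06), and it had too few UMIs to be fitted in paraffin sections. Neurod1, a bHLH factor of granule cell differentiation, differed from CA1 by 2.19 ± 0.21 (edgeR adjusted p = 5.53e-10) and from CA3 by 0.93 ± 0.17 (0.00052) in fresh-frozen TE sections. Gabrd, the delta subunit of GABA-A receptors, did not pass against CA1 in any condition, with -0.66 ± 0.73 in fresh-frozen HCl and 1.42 ± 0.59 in fresh-frozen TE sections. Against CA3 it passed in fresh-frozen TE sections alone (2.74 ± 0.78, edgeR adjusted p = 0.024), a call lost in 4 of 8 fits that left out a replicate. Ntf3, a neurotrophin, stood at 0.79 ± 0.43 against CA1 in fresh-frozen HCl sections (edgeR adjusted p = 0.211) but passed against CA3 there (2.46 ± 0.40, edgeR adjusted p = 0.000144).

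Of the remaining genes of the list, Sema5a, a semaphorin, passed in all comparisons but paraffin sections against CA3 (0.45 ± 0.28). Npnt, of the extracellular matrix, passed in the frozen conditions and stood at 0.47 ± 0.56 against CA1 and 2.18 ± 0.71 against CA3 in paraffin sections. Dock10, an exchange factor for small GTPases, also passed in the frozen conditions, and in paraffin sections its fold over CA1 was -0.06 ± 0.31, with 200.3 ± 36.3 CPM in DG and 214.7 ± 62.1 in CA1. Maml2, a coactivator of Notch, passed in the frozen conditions except fixed frozen sections against CA3 (1.27 ± 0.47, edgeR adjusted p = 0.0627). Glis3, a zinc finger factor, passed in fresh-frozen HCl sections against CA1 (1.83 ± 0.56, edgeR adjusted p = 0.0177) and CA3 (1.73 ± 0.55, 0.0484), and it had too few UMIs to be fitted in fixed frozen sections.

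**Figure D5:**
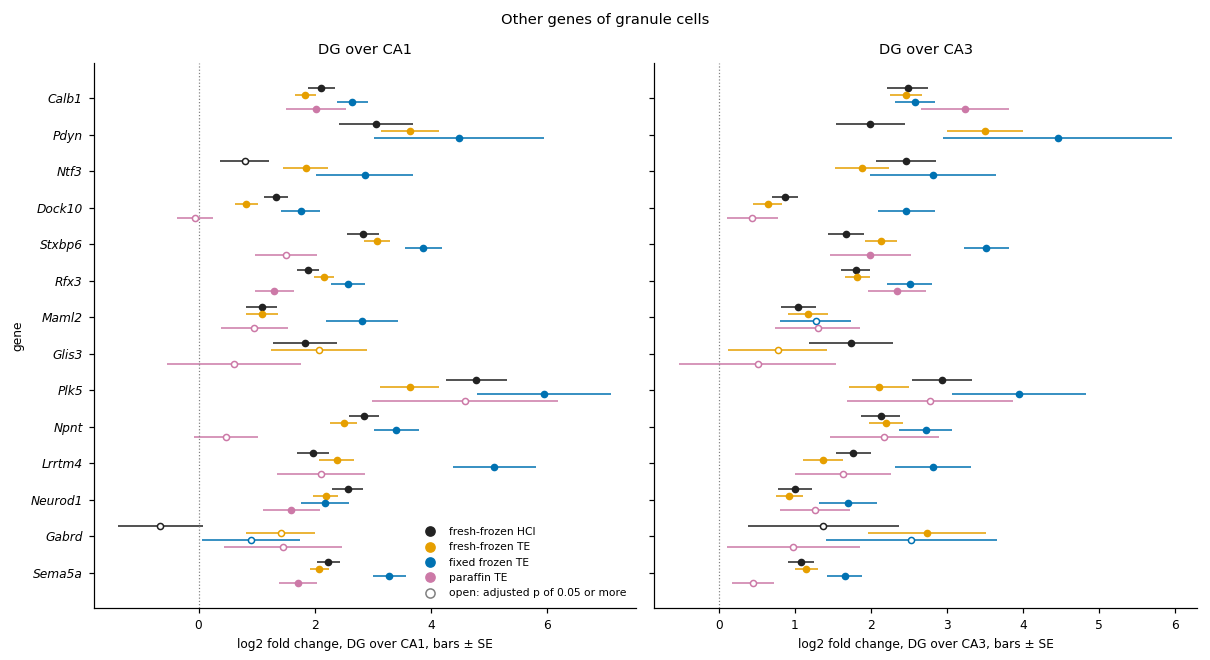
Log2 fold change (horizontal axes, bars ± SE) of 14 other granule cell genes in DG against CA1 (left) and CA3 (right) in 4 conditions. Filled points had an edgeR adjusted p under 0.05, and missing points were genes with too few UMIs. In the frozen conditions 12 genes passed against CA1, in paraffin sections 4.

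The 12 groups of region and condition also show which other genes had a pattern like that of the 10. Among 9598 genes with at least 200 UMIs over all replicates, the mean levels of Foxo1 (Pearson r = 0.97), Ccdc85a (0.964), Rfx3 (0.954), Eps8 (0.953) and Igsf3 (0.931) ran closest to Prox1 over the 12 groups, on the scale of log2(CPM + 1). Closest to the summed level of the 10 genes were Ccdc85a (0.983), Slc39a6 (0.953), Plk5 (0.951), Lrrtm4 (0.934) and Fam163b (0.931). Within the 10, Dsp and C1ql2 had r of 0.921 and 0.901 with Prox1, and Smoc2 and Lct 0.467 and 0.516. These coefficients are descriptions, as the 12 points share the 3 regions and the depth of their libraries.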

How the data were processed

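PIC RNA-seq with CEL-seq2 chemistry was performed on CA1, CA3 and DG in 4 conditions, and 48 replicates in 12 libraries were analysed. The authors deposited whole-number UMI counts per gene and replicate, without normalization. They extracted barcodes and UMIs of 6 bases and counted different UMIs with UMI-tools 1.0.0, aligned reads to GRCm38 with HISAT2 2.1.0 and assigned them with featureCounts 1.6.4 (versions from the submitters' processing notes). The release of the annotation is not given in the sources used here. UMIs of 6 bases allow 4096 different molecules, and the largest count of the 10 genes was 731. The list of barcodes played no part. No 2 replicates of a group had identical counts, and the lowest chi-square per gene of 72 pairs was 1.21.

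CPM were counts scaled by the total of each replicate. Groups were compared with edgeR 4.0.16 in R 4.3.3 (quasi-likelihood test, TMM), with genes of at least 10 UMIs summed over the replicates of a fit, Benjamini-Hochberg adjustment over all genes fitted and a threshold of 0.05. Interactions were fitted on 32 replicates in 8 groups. The SE of a log2 fold change was worked back from the F statistic of the edgeR test. The 95% intervals of interactions were built on that SE by the normal approximation, so they are approximate and may be too narrow. Scripts were tested on simulated data with 200 changed genes. Alternatives were DESeq2 1.42.0, its size factors, no filter, filterByExpr, the remaining region in the fit, the replicate number as a block, thinning of all replicates to 35932 UMIs with and without the block, and leaving out each replicate. Figures were drawn with matplotlib 3.10.9 in Python 3.11.15. Positions were from GENCODE M21, which held 32530 of the 32546 identifiers.

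Whether replicate numbers pair the libraries was checked by the correlation across genes (mean of at least 5 UMIs, pseudocount of 10 CPM) of deviations from the library mean. It was above 0.1 in every pair for DG and CA3 in fresh-frozen HCl (0.228 to 0.433), for DG and CA1 (0.219 to 0.314) and DG and CA3 (0.213 to 0.312) in fresh-frozen TE, and for DG between fresh-frozen TE and HCl (0.171 to 0.337). In the other comparisons at least 1 pair was lower. The labels do not say what a replicate number stands for.

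The 10 genes, the list of 14 granule cell genes and the marker lists (CA1 and CA3 pyramidal, mossy, immature granule, interneuron, Cajal-Retzius, leptomeningeal, choroid plexus, astrocyte, endothelial and mural) were chosen with earlier results of these data known. The genes to name were the 10, the 14 and the 5 each with the highest correlation with Prox1 and with the summed level. Prox1os, Zic4 and Gm32014 are named beside these as overlapping genes, and Calb2 as shared by 2 lists.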

Additional observations from a re-analysis of the deposited data

Results flagged for a closer look

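In each group of 4 replicates, the replicate farthest from the rest was compared with the spread of its group for the 10 genes, and 15 of 120 groups held a value apart by Dixon's criterion at the 95% level. The criterion marks about 1 group in 20 by chance where values spread normally, a rate that does not hold for groups of a few UMIs. In 9 of the groups a single replicate held the only UMI, or for Lct both UMIs, and such a group meets the criterion by construction. These were Smoc2 (5.53 CPM in replicate 2), C1ql2 (14.5 CPM in replicate 1), Trpc6 (5.53 CPM in replicate 2) and Tdo2 (5.53 CPM in replicate 2) of fixed frozen CA1, Dsp (21.3 CPM in replicate 1) and Trpc6 (18.0 CPM in replicate 2) of paraffin CA1, and Dsp (8.27 CPM in replicate 1), Tdo2 (25.1 CPM in replicate 4) and Lct (20.1 CPM in replicate 2) of paraffin CA3. Lgr6 in paraffin CA3 stood at 126 CPM in replicate 3, from 6 UMIs, against 0 to 10.1 CPM in the others. In deeper groups, Prox1 stood at 486 CPM in replicate 4 of fixed frozen DG and at 223 CPM in replicate 2 of fresh-frozen TE CA3. Zic1 was at 339.6 CPM in replicate 4 of fresh-frozen TE DG, below 524 to 547 CPM in the others. Trpc6 was at 2.74 CPM in replicate 1 of fresh-frozen HCl CA1 and Tdo2 at 11.8 CPM in replicate 1 of fresh-frozen TE CA3.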

How the results depend on the processing

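The counts varied with depth, with the filter, with the tool and with single replicates. Among the 10 genes, thinning to 35932 UMIs gave 4, 5 and 2 calls against CA1 in fresh-frozen HCl, fresh-frozen TE and paraffin sections (from 9, 8 and 5), the same with the replicate block. Over all genes, thinned counts without the block called 113 of 5871, 86 of 5427 and 63 of 5475 higher. Full counts called 1217 of 14893, 707 of 14011 and 203 of 8969. Against CA3 thinning gave 5, 3, 4 and 2 of the 10 genes in the 4 conditions (from 8, 8, 8 and 4), and 4 in fresh-frozen TE with the block. Over all genes, thinned counts without the block called 59 of 5802, 42 of 5385, 89 of 5100 and 38 of 5549 higher. Full counts called 687 of 15161, 514 of 14386, 465 of 9353 and 123 of 9380. filterByExpr left 5 calls against CA1 in fixed frozen sections, and 1 against CA1 and 2 against CA3 in paraffin sections. Over all genes it called 239 of 2774, 72 of 1376 and 92 of 2327 higher in these comparisons. DESeq2 gave 2 against CA1 and 2 against CA3 in paraffin sections, where it called 50 of 8969 and 50 of 9380 genes higher. Leaving out a replicate gave 3 to 6 and 2 to 5 calls there. For the 14 granule cell genes, thinned counts gave 5, 4, 7 and 2 against CA1 (from 12, 12, 12 and 4), the same with the block, and 3, 5 and 7 against CA3 in the conditions other than paraffin (from 13, 13 and 11), or 4, 4 and 7 with the block. Over all genes, thinned counts of fixed frozen sections called 120 of 5111 higher against CA1, and the others are given above. filterByExpr gave 6 in fixed frozen sections against each region and 2 in paraffin sections against CA1, and DESeq2 gave 1 in the latter. Leaving out a replicate gave 1 to 3 there. Over all genes, filterByExpr called 311 of 2834 higher in fixed frozen sections against CA3. filterByExpr tests fewer genes, and thinning, made as a single random draw, uses fewer UMIs. A gene of either list that no longer passed the filter is counted here as not called. For the 10 genes in DG, thinned counts, with and without the block, gave 1, 3 and 2 calls for the 3 steps (from 3, 6 and 5), and leaving out a replicate gave 1 to 4, 2 to 6 and 3 to 5. Over all genes, thinned counts without the block called 108 higher and 86 lower of 5637 in the first step. In the next steps it was 466 and 463 of 5418, and 228 and 187 of 5473. The replicate block gave 6 in the first step. In comparisons with a pair of same-numbered replicates correlated below 0.1, which were not taken as paired, the block ended the call of Pdyn in fixed frozen sections against CA1 (adjusted p from 0.0324 to 0.0682) and CA3 (0.0371 to 0.0726) and added Ntf3 against CA1 in fresh-frozen HCl (0.0361) and Neurod1 against CA3 in paraffin sections (0.0247). In fixed frozen sections each of the 4 DG replicates still correlated best with its own number in CA1 and in CA3, as did 4 and 3 in paraffin and 0 in fresh-frozen HCl against CA1, a hint from the data and not from the design. Between conditions 2 and 1 of 4 did in the later steps. The block changed no other call of the genes in the region comparisons. The sign turned, without a call on either side, for Lct against CA1 in fresh-frozen TE (0.20, with -0.0874 in thinned counts and -0.0853 in thinned counts with the block), for Smoc2 against CA3 in fixed frozen sections (0.06, with -0.033 in DESeq2 and -0.19 to 0.21 on leaving out a replicate) and for Smoc2 against CA3 in paraffin sections (-0.27, with -0.62 to 0.0759 on leaving out a replicate). Size factors of DESeq2 moved the median log2 fold change of all genes between paraffin DG and CA1 from 0.17 to 0.06. Prox1 kept its direction from fixed frozen to paraffin sections in each alternative but lost its call in several, and the cause was not tested. No gene of the 10 was called for an interaction in any alternative run.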
